A study of Homo sapiens with 7 samples.

Results

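The nucleolus is where the cell makes ribosomes. RNA polymerase I transcribes the ribosomal RNA precursor there, small nucleolar ribonucleoproteins (snoRNPs) modify it at guided positions, and a long series of assembly factors cuts it, folds it and loads it with ribosomal proteins until precursors of the small and the large subunit leave for the cytoplasm. In cultured cells this is one of the costliest activities of growth, and many of its genes are known targets of the transcription factor MYC. The set described here consists of 40 genes of this machinery taken by name from the deposited table. It holds 7 genes of RNA polymerase I and its factors, 3 of the box C/D snoRNP, 4 of the box H/ACA snoRNP, 3 of nucleolar phosphoproteins, 3 of the PeBoW complex, 8 of other large subunit assembly factors, 7 of the small subunit processome and 5 of later small subunit assembly. The deposited table held 19978 genes, 14863 of them were expressed highly enough to be tested, and all 40 of the nucleolar genes were among those.

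Gene expression was measured by RNA-seq in HEK-293, an immortalized human embryonic kidney line, after 48 h in DMEM with serum. The control (2 samples) was kept at pH 7.4 and acidosis (3 samples) at pH 6.6, both with DMSO as vehicle, and the third group (2 samples) was kept at pH 7.4 with 10 µM SRPIN340, an SR protein kinase inhibitor, in the same vehicle. The study used this design to ask whether mild acidosis resembles the inhibition of SR protein phosphorylation. The samples are biological repeats of 1 cell line, and the spread between them may hold technical parts. Because poly(A) RNA was captured, the products of RNA polymerase I themselves and mature snoRNAs were not measured, and every value below is the messenger RNA of a factor, not ribosome production.

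Totals of estimated counts lay between 13615816 and 24110460 per sample, with the lowest 2 in acidosis, and the lowest count of any nucleolar gene in any sample was 62.0. Levels are given in CPM, the count of a gene relative to the size of its library, scaled by TMM, a method that takes the typical gene as unchanged between samples. The scaling matters here, since the 100 most abundant genes took 15.2% to 15.4% of the counts in the control and SRPIN340 samples but 24.1% to 24.8% in acidosis. When total counts alone set the scale, the typical (median) tested gene shifted in acidosis from -0.05 to -0.63 on the log2 scale. Changes in acidosis are therefore relative to the typical gene, and in these bulk samples fewer cells of a kind and less RNA per cell cannot be told apart. Of the HEK-293 markers, VIM lay between 836 and 2745 CPM, LHX1 between 13.7 and 18.5 CPM and PAX2 between 1.19 and 7.06 CPM, and EYA1, NEFL, NEFM and CDH2 were between 10.2 and 259 CPM. Markers of leukocytes (PTPRC), hepatocytes (ALB) and endothelium (PECAM1) stayed below 1 CPM, whereas the fibroblast marker COL1A1 reached 27.9 to 65.5 CPM, with its highest values in acidosis. Whether COL1A1 bears on the nucleolar genes was not tested.

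The sequences around the start sites show what many of these genes share. In the RefSeq promoters (GRCh38.p14, 250 bases before to 50 after the start), which were found for 34 of the 40 genes, the canonical E-box CACGTG, a palindrome bound by MYC, MAX and USF proteins, was present in 14 genes (41.2%), against 12.3% of the 11825 tested genes with a promoter entry and 7.26% of all 35116 promoters. BOP1, NOLC1, NOP58, POLR1E, RRP12 and RRS1 had no promoter entry. All 14 genes had an E-box beginning within 50 bases of the start, and of the 16 E-boxes found 10 lay in the 5′ UTR of the canonical transcript, 5 upstream of it and 1, in RRP9, across its first base. The windows below are shown because they carry the same 6 letters at nearly the same place in genes that went opposite ways in acidosis. The E-box is in capitals and each window reads 5′ to 3′ on the strand of its gene. The first 5 belong to genes that were higher in acidosis under TMM scaling (GNL3 passed in neither direction with total count scaling) and the last 5 to genes that were lower.
BYSL (chr6:41921515-41921544, plus strand, 5′ UTR): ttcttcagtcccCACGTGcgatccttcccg
NOP10 (chr15:34343130-34343159, minus strand, upstream): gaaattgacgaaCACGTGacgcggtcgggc
NOP2 (chr12:6568242-6568268, minus strand, 5′ UTR): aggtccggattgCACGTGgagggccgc
FBL (chr19:39846356-39846385, minus strand, 5′ UTR): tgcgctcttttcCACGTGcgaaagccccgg
GNL3 (chr3:52686026-52686055, plus strand, 5′ UTR): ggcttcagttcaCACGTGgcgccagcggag
UTP20 (chr12:101280083-101280112, plus strand, upstream): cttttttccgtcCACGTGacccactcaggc
NOP14 (chr4:2963374-2963403, minus strand, 5′ UTR): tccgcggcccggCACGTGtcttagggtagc
RRP9 (chr3:51941892-51941921, minus strand, across the first base): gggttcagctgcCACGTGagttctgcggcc
LTV1 (chr6:143843354-143843383, plus strand, 5′ UTR): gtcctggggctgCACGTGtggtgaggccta
UTP4 (chr16:69132621-69132650, plus strand, upstream): agagcgcgcgcgCACGTGgggccggggcgg

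The E-box did not separate the genes by direction. Of the 14 genes that have it, 8 were higher and 6 lower in acidosis under TMM scaling (median log2 fold change 0.23). Of the 20 genes without it in this window 10 were higher, 7 lower and 3 not past the test, with a median of 0.22. Over all tested genes 32.5% were higher and 34.2% lower. With total count scaling PES1 and WDR43 of the 14 turned lower, and GAR1 and GNL3 passed in neither direction. Among the 20, DKC1 and NCL turned lower and POLR1D, NOP16, RRP1 and NOC2L passed in neither direction. POLR1C and NOB1 of the 20 became lower. Other motifs searched on both strands were the ETS core CCGGAAG, present in 41.2% of the 34 genes and 20.6% of tested genes, the GC box GGGCGG, in 79.4% and 75.9%, and the YY1 core AAGATGGC, in 5.88% and 5.78%. The median GC content of the promoters was 64.3% in both the nucleolar genes and the tested genes. A match of letters is a description of the sequence and not a measured binding site.

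In acidosis the nucleolar genes changed in both directions, as tested genes did in general. A gene was counted as past the test at a Benjamini-Hochberg adjusted p under 0.05 in edgeR's quasi-likelihood test, adjusted over all tested genes. By this rule 20 of the 40 were higher than in the control, against 32.5% of all tested genes, and 13 were lower, against 34.2%, while 7 did not pass. Their log2 fold changes ran from -1.39 for UBTF to 2.17 for RRP12, with a median of 0.22 against -0.05 for all tested genes. Where an absolute log2 fold change over 1 was also required, 8 were higher and 4 lower, with 14.4% and 19.1% of all tested genes as the background. With total count scaling the split was 10 higher and 23 lower, against 16.2% and 55.0% of all tested genes. The median of the 40 was then -0.36, which lies 0.27 above that of all genes. The distance was the same with TMM, but a change of scaling shifts all genes nearly alike, so this is no separate support. The genes higher under both scalings were RRP12, BYSL, NOLC1, NHP2, UTP15, NIP7, NOP56, NOP10, NOP2 and FBL, and the 13 lower genes were lower under both. Of the other 10 higher genes, DKC1, NCL, PES1 and WDR43 were lower with total count scaling and POLR1D, GAR1, NOP16, RRP1, GNL3 and NOC2L passed in neither direction. POLR1C, POLR1E, NOP58, BOP1, RRS1 and NOB1, which did not pass with TMM, were lower with total count scaling.

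**Figure D1:**
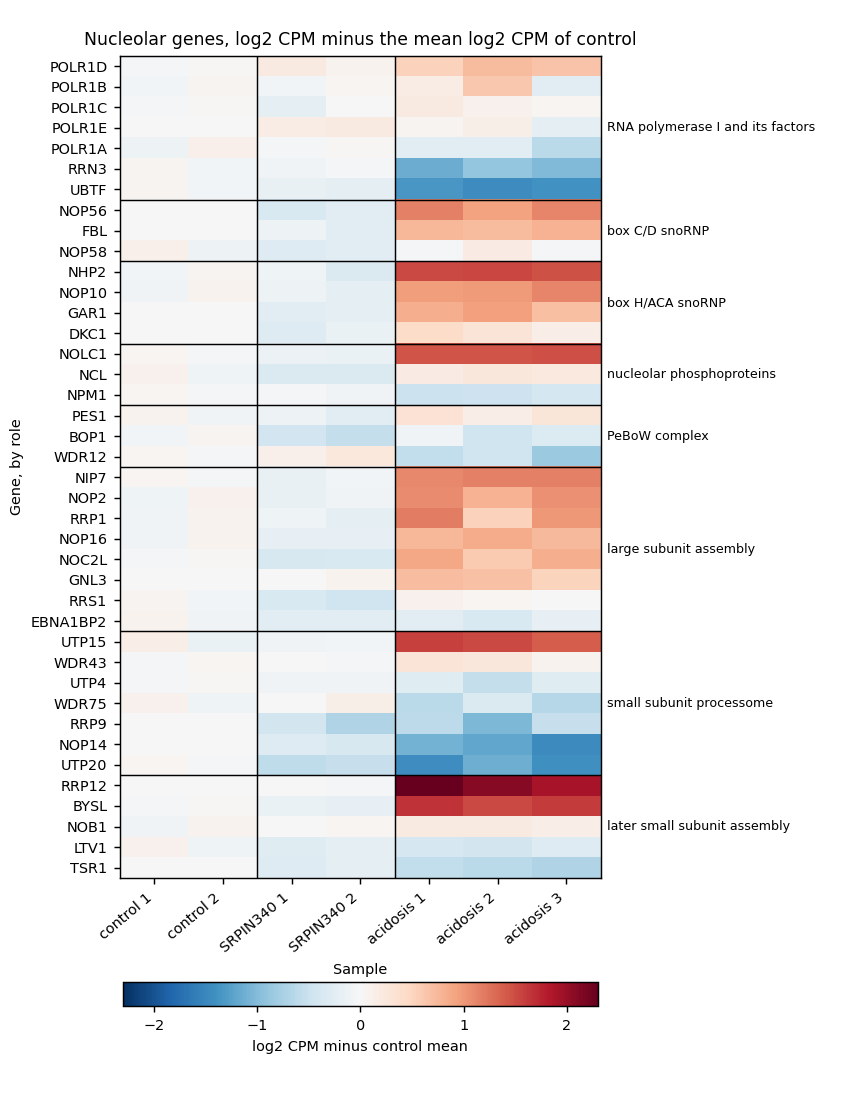
Heat map of the 40 nucleolar genes (rows, grouped by role) in the 7 samples (columns), coloured by log2 CPM minus the mean log2 CPM of the 2 control samples, red for higher and blue for lower. The acidosis samples show both colours within most role groups, RRP12 being the strongest red and UBTF among the strongest blues, and the SRPIN340 samples are mostly pale blue.

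RNA polymerase I and its start factors included the deepest fall of the set. UBTF, the upstream binding factor that keeps ribosomal DNA open, was at 136 and 126 CPM in the control, 116 and 113 CPM with SRPIN340, and 51.6, 47.7 and 49.8 CPM in acidosis. Every acidosis sample was far below every other sample, and the difference from the control was a log2 fold change of -1.39 ± 0.08 (SE), or 2.63-fold lower (edgeR adjusted p = 2.91e-07). RRN3, which recruits RNA polymerase I to its promoter, was at 86.9 and 78.7 CPM in the control, 78.1 and 80.1 CPM with SRPIN340, and 37.3, 44.6 and 41.1 CPM in acidosis. The acidosis samples again lay apart from the others, and the fall was 2.02-fold (log2 fold change -1.02 ± 0.10, edgeR adjusted p = 1.05e-05). RRN3 has 3 pseudogenes named after it, with which its reads can be shared.

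Among the subunits of the enzyme, POLR1A, the largest catalytic subunit, was lower in acidosis (log2 fold change -0.36 ± 0.12, edgeR adjusted p = 0.024), whereas POLR1D, a subunit shared with RNA polymerase III, was higher by 0.64 ± 0.09 on the log2 scale (edgeR adjusted p = 0.00012) and passed in neither direction with total count scaling. POLR1B, the second catalytic subunit, varied widely between the acidosis samples (74.4, 101 and 55.7 CPM) and had a log2 fold change of 0.22 ± 0.20. The values for POLR1C, the other subunit shared with RNA polymerase III, and for POLR1E were 0.12 ± 0.11 and 0.00 ± 0.13, and none of the 3 passed. In this group 1 gene was higher, against 32.5% of all tested genes, 3 were lower, against 34.2%, and 3 did not pass. With total count scaling 0 were higher and 5 lower, against 16.2% and 55.0% of all tested genes. POLR1C (-0.45, edgeR adjusted p = 0.004) and POLR1E (-0.57, edgeR adjusted p = 0.0037) then joined POLR1A, UBTF and RRN3.

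None of the 7 snoRNP proteins was lower under TMM scaling, against 34.2% of all tested genes. NOP58 and DKC1 were lower with total count scaling, against 55.0% of all tested genes. The box C/D particle carries out 2′-O-methylation of ribosomal RNA. Its methyltransferase FBL (fibrillarin) was at 345 and 346 CPM in the control, 317 and 293 CPM with SRPIN340, and 584, 574 and 601 CPM in acidosis. FBL was thus 1.70-fold higher in acidosis, with no overlap between the groups (log2 fold change 0.76 ± 0.06, edgeR adjusted p = 2.94e-06). NOP56, a scaffold protein of the same particle, was at 272 and 278 CPM in the control, 216 and 228 CPM with SRPIN340, and 617, 522 and 598 CPM in acidosis. It rose 2.11-fold (log2 fold change 1.07 ± 0.08, edgeR adjusted p = 1.91e-06). NOP58, the other scaffold protein, had overlapping values in acidosis (125, 144 and 123 CPM) and in the control (137 and 117 CPM), with a log2 fold change of 0.04 ± 0.10 that did not pass, against -0.54 with total count scaling (edgeR adjusted p = 0.00072).

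The box H/ACA particle converts uridine to pseudouridine. All 4 of its proteins were higher in acidosis, against 32.5% of all tested genes. With total count scaling, however, GAR1 passed in neither direction and DKC1 was lower. NHP2 was at 67.5 and 73.8 CPM in the control, 65.5 and 56.1 CPM with SRPIN340, and 202, 206 and 195 CPM in acidosis. The rise was 2.84-fold (log2 fold change 1.51 ± 0.09, edgeR adjusted p = 4.21e-07), and exons of NHP2 overlap the gene RMND5B on the opposite strand. NOP10, the smallest protein of the particle, was at 40.4 and 44.9 CPM in the control, 39.0 and 36.3 CPM with SRPIN340, and 83.3, 83.8 and 93.0 CPM in acidosis, a 2.03-fold rise (log2 fold change 1.02 ± 0.10, edgeR adjusted p = 1.01e-05). The smaller differences belonged to GAR1, at 0.83 ± 0.12 on the log2 scale, and to DKC1 (dyskerin), the pseudouridine synthase itself, at 0.30 ± 0.09.

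Of the abundant nucleolar phosphoproteins, NOLC1, a chaperone that escorts snoRNPs, showed the smallest adjusted p of the set. It was at 269 and 254 CPM in the control, 239 and 234 CPM with SRPIN340, and 710.4, 716 and 728 CPM in acidosis. The acidosis samples were nearly identical, and the rise was 2.75-fold (log2 fold change 1.46 ± 0.06, edgeR adjusted p = 4.33e-08). NPM1 (nucleophosmin), a chaperone for ribosomal proteins, went the opposite way, from 1014 and 947 CPM in the control and 945 and 931 CPM with SRPIN340 to 698, 704 and 736 CPM in acidosis. This was 1.38-fold lower (log2 fold change -0.46 ± 0.06, edgeR adjusted p = 5.1e-05). NPM1 has 49 pseudogenes named after it, so that its estimated counts depend on how shared reads were divided.

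NCL (nucleolin), which binds the ribosomal RNA precursor, depended on the processing. It was at 1410 and 1241 CPM in the control and at 1511, 1595 and 1539 CPM in acidosis. The groups did not overlap, but the 2 control samples differed by more than the nearest control and acidosis samples did. The log2 fold change was 0.22 ± 0.06 (edgeR adjusted p = 0.011), it did not pass without the second control sample (0.11, edgeR adjusted p = 0.14), and with total count scaling it was -0.35 (edgeR adjusted p = 0.00059). NCL and NPM1 together made up 39.8% to 42.1% of all counts of the 40 genes in the control, 40.1% to 40.3% with SRPIN340 and 30.5% to 32.6% in acidosis.

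**Figure D2:**
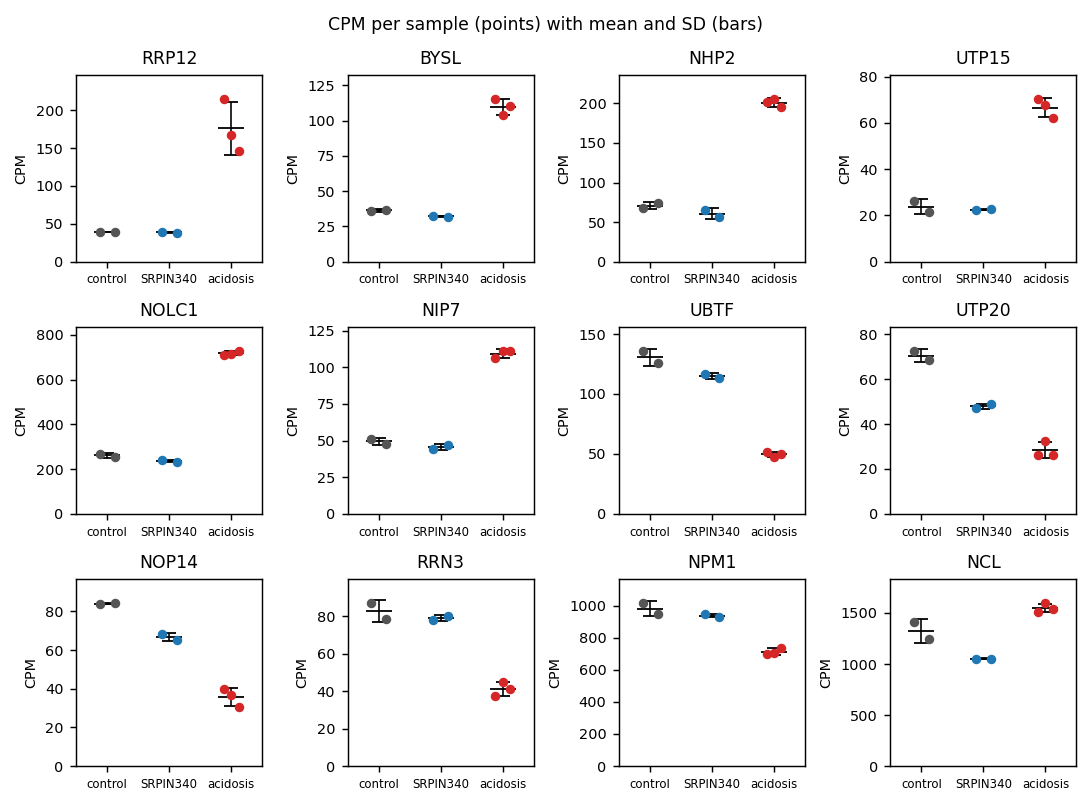
CPM in every sample (points; vertical axis from 0) for 12 nucleolar genes in control, SRPIN340 and acidosis, with the group mean (horizontal mark) and SD (error bar). In acidosis RRP12, BYSL, NHP2, UTP15, NOLC1 and NIP7 lie above all other samples and UBTF, UTP20, NOP14, RRN3 and NPM1 below them, while NCL is lowest with SRPIN340.

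The PeBoW complex, a trimer of PES1, BOP1 and WDR12 needed for the large subunit, had 1 gene higher, 1 lower and 1 not past the test. Over all tested genes 32.5% were higher and 34.2% lower. With total count scaling 0 of the 3 were higher and 3 lower, against 16.2% and 55.0% of all tested genes. WDR12 was at 61.2 and 58.1 CPM in the control, 65.0 and 70.6 CPM with SRPIN340, and 40.4, 43.2 and 33.0 CPM in acidosis. It was 1.53-fold lower in acidosis (log2 fold change -0.62 ± 0.12, edgeR adjusted p = 0.001). BOP1 was at 35.8 and 39.1 CPM in the control, 27.5 and 25.7 CPM with SRPIN340, and 35.6, 27.2 and 30.3 CPM in acidosis. Its acidosis values reached almost to those of the control, and the log2 fold change of -0.27 ± 0.13 did not pass (edgeR adjusted p = 0.09). PES1 had a log2 fold change of 0.26 ± 0.09 (edgeR adjusted p = 0.029), which turned to -0.32 with total count scaling.

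Most other large subunit factors of the set were higher in acidosis: 6 of the 8 rose, against 32.5% of all tested genes. Among 42 further large subunit factors outside the set, 16 were higher and 14 lower under TMM scaling. With total count scaling 2 of the 8 were higher and 2 lower, against 16.2% and 55.0% of all tested genes. NOP16, RRP1, NOC2L and GNL3 then passed in neither direction. NIP7, a factor in ribosomal RNA processing, was at 51.2 and 47.7 CPM in the control, 44.1 and 47.1 CPM with SRPIN340, and 106, 111 and 111 CPM in acidosis. The rise was 2.21-fold (log2 fold change 1.14 ± 0.08, edgeR adjusted p = 1.67e-06). NOP2, a methyltransferase acting on the large ribosomal RNA, was at 75.5 and 86.3 CPM in the control, 71.6 and 76.3 CPM with SRPIN340, and 172, 140.5 and 167 CPM in acidosis, or 1.98-fold higher (log2 fold change 0.98 ± 0.11, edgeR adjusted p = 2.33e-05). RRP1, NOC2L, NOP16 and GNL3 (nucleostemin) had log2 fold changes of 0.93 ± 0.17, 0.78 ± 0.09, 0.79 ± 0.11 and 0.64 ± 0.08, respectively. EBNA1BP2 was lower by -0.26 ± 0.09 on the log2 scale (edgeR adjusted p = 0.028), and RRS1, which brings the 5S particle to the precursor, had 0.05 ± 0.11 and did not pass.

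The 7 listed genes of the small subunit processome, the large particle that forms on the precursor while it is still being transcribed, leaned the other way. Of these 7 genes 5 were lower, against 34.2% of all tested genes, and 2 higher, against 32.5%. The median log2 fold change of the 7 was -0.53. The lean is that of the 7 genes, as 39 further small subunit factors had 16 lower and 12 higher under TMM scaling. With total count scaling 6 were lower and 1 higher, against 55.0% and 16.2% of all tested genes. UTP20, a very long scaffold protein, was at 72.5 and 68.5 CPM in the control, 47.2 and 48.8 CPM with SRPIN340, and 26.2, 32.5 and 26.4 CPM in acidosis. The 3 groups did not overlap, and acidosis was 2.49-fold below the control (log2 fold change -1.32 ± 0.11, edgeR adjusted p = 4.3e-06). NOP14, another processome component, was at 84.0 and 84.2 CPM in the control, 68.3 and 65.4 CPM with SRPIN340, and 39.8, 36.8 and 30.6 CPM in acidosis. It was 2.35-fold lower in acidosis (log2 fold change -1.23 ± 0.11, edgeR adjusted p = 6.39e-06).

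UTP15, a member of the subcomplex that joins the precursor first (t-UTP), was at 26.3 and 21.4 CPM in the control, 22.4 and 22.7 CPM with SRPIN340, and 70.4, 67.6 and 62.0 CPM in acidosis. It rose 2.80-fold (log2 fold change 1.48 ± 0.12, edgeR adjusted p = 3.06e-06). UTP4, WDR75 and WDR43 belong to the same subcomplex, and their log2 fold changes were -0.36 ± 0.10, -0.53 ± 0.12 and 0.21 ± 0.09, the last at an edgeR adjusted p of 0.0497 and lower with total count scaling. RRP9, which binds the U3 snoRNA, was the least abundant gene of the set in CPM (11.7 and 11.5 CPM in the control) and had a log2 fold change of -0.70 ± 0.19 (edgeR adjusted p = 0.0085).

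Later small subunit assembly held both of the largest rises. RRP12, needed for maturation and export of the precursor subunits, was at 38.9 and 39.5 CPM in the control, 38.7 and 38.4 CPM with SRPIN340, and 215, 168 and 147 CPM in acidosis. It was 4.51-fold higher in acidosis, where its spread was also wide (177 ± 35.0 CPM, SD, n = 3, against 39.2 ± 0.39 CPM, n = 2), with a log2 fold change of 2.17 ± 0.15 (edgeR adjusted p = 1.13e-06). BYSL (bystin), which acts in the formation of the 40S head, was at 35.7 and 37.0 CPM in the control, 32.5 and 31.9 CPM with SRPIN340, and 115, 104 and 110.1 CPM in acidosis, a 3.02-fold rise (log2 fold change 1.60 ± 0.09, edgeR adjusted p = 2.79e-07). TSR1 and LTV1, which keep the precursor from starting translation, were lower by -0.63 ± 0.07 and -0.37 ± 0.09 on the log2 scale, and NOB1, the endonuclease of the last cut of 18S ribosomal RNA, had 0.19 ± 0.09 and did not pass.

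**Figure D3:**
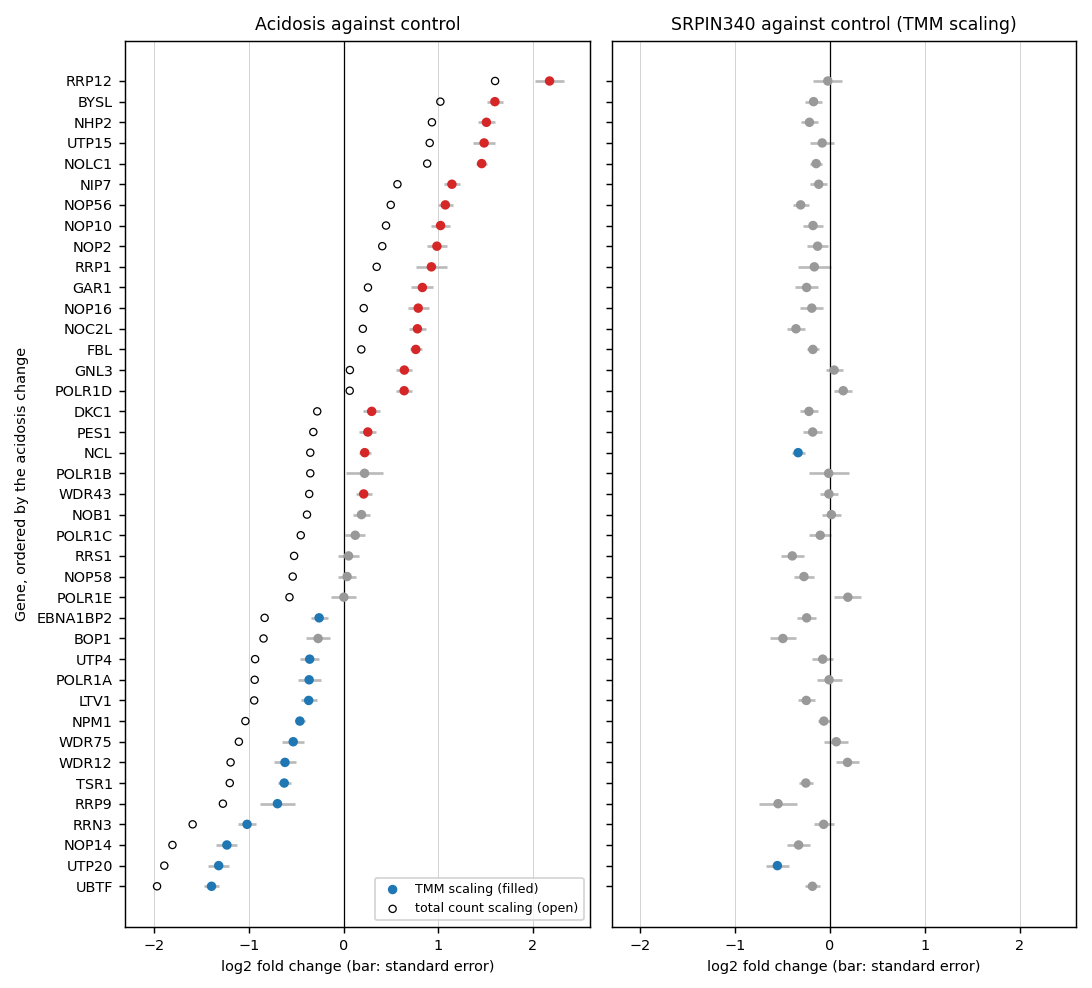
Log2 fold change of each of the 40 genes (rows, ordered by the acidosis change) in acidosis against control (left) and SRPIN340 against control (right); bars are standard errors, filled points use TMM scaling and are red (higher) or blue (lower) where the adjusted p is under 0.05 and grey otherwise, and open points at left use total count scaling. Acidosis spans -1.39 to 2.17, whereas with SRPIN340 all values lie between -0.55 and 0.19.

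Because the ratio of 2 genes within a sample does not depend on library scaling, 11 ratios between partners of the same complex were compared. They are not separate observations, as 4 of them share POLR1A, which itself was lower, and 3 share DKC1. With 3 samples against 2 a two-sided exact permutation p cannot fall below 0.2, which was the value of each ratio, so they are given as a description. NHP2 stood at 44.2% of the DKC1 count in the control (geometric mean), 44.4% with SRPIN340 and 103% in acidosis, a log2 difference between acidosis and control of 1.22 with a pooled SD of 0.10. NOP10 and GAR1 moved against DKC1 by 0.73 (pooled SD 0.18) and 0.54 (0.09). All 3 partners were thus higher relative to the catalytic subunit. In the box C/D particle NOP56 moved against FBL by 0.31 (pooled SD 0.09) and NOP58 by -0.72 (0.15), so that the 2 scaffold proteins went opposite ways relative to the methyltransferase.

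In the polymerase, POLR1D moved against POLR1A by 1.01 (pooled SD 0.22), POLR1B by 0.55 (0.23), POLR1C by 0.49 (0.15) and POLR1E by 0.37 (0.10), all upward. In PeBoW, BOP1 and WDR12 moved against PES1 by -0.54 (pooled SD 0.15) and -0.88 (0.21). With SRPIN340 the 11 differences from the control ran from -0.31 for BOP1 to PES1 up to 0.37 for WDR12 to PES1.

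**Figure D4:**
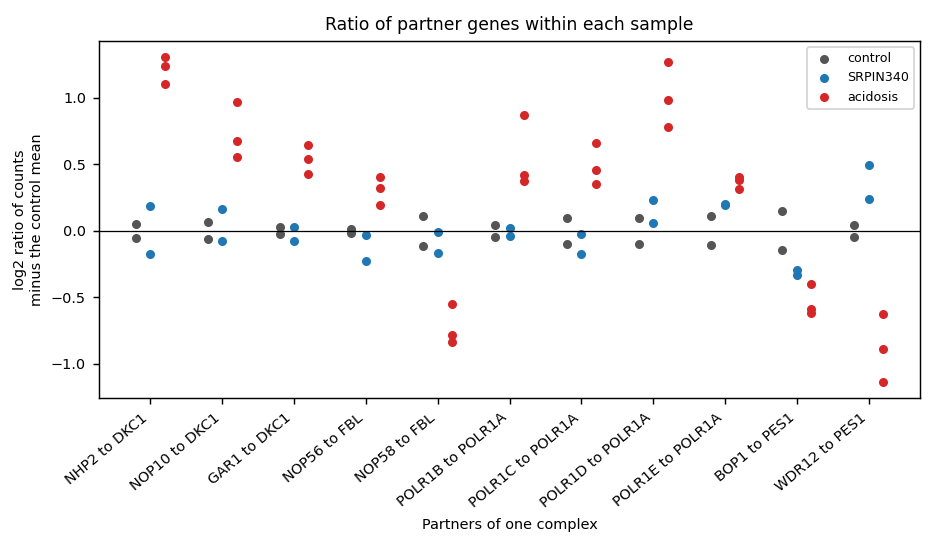
Log2 ratio of the estimated counts of 2 genes of the same complex within each sample, minus the mean of the 2 control samples (vertical axis), for 11 gene pairs (horizontal axis); each point is a sample of control (grey), SRPIN340 (blue) or acidosis (red). Red points are highest for NHP2 to DKC1 and lowest for WDR12 to PES1.

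SRPIN340 gave small differences. With the inhibitor 0 of the 40 genes were higher than in the control, against 0.767% of all tested genes, and 2 were lower, against 1.53%. The number with an unadjusted p under 0.05 in edgeR was 16, against 17.6% of all tested genes. With DESeq2 0 were higher and 6 lower, against 2.18% and 3.95%. The 40 genes were mostly on the low side, as 34 of them (85.0%) had a negative log2 fold change against 49.5% of all tested genes, and their median was -0.18 against 0.00. NCL, at 1048 and 1053 CPM against 1410 and 1241 CPM in the control, was lower (log2 fold change -0.34 ± 0.07, edgeR adjusted p = 0.042). UTP20, whose values are given above, was lower as well (log2 fold change -0.55 ± 0.12, edgeR adjusted p = 0.049). Both calls are near the threshold and were lost with total count scaling, where the edgeR adjusted p was 0.061 for NCL and 0.065 for UTP20. They were also lost when any of the 4 control and SRPIN340 samples was left out (edgeR adjusted p of 0.17 to 0.28 for NCL and 0.17 to 0.30 for UTP20), except that NCL passed without the second control sample. Neither UBTF (-0.18 ± 0.08) nor RRN3 (-0.07 ± 0.10) passed with SRPIN340.

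Compared directly, acidosis and SRPIN340 differed in most of the nucleolar genes. In acidosis 22 of the 40 were higher than with SRPIN340, against 32.8% of all tested genes, and 10 were lower, against 35.0%, and the median log2 difference was 0.38 against -0.05 for all tested genes. With total count scaling these counts were 14 and 19, against 15.8% and 56.9% of all tested genes. NOP58 and RRS1, which did not pass against the control, were higher in acidosis than with SRPIN340 by 0.31 ± 0.10 (edgeR adjusted p = 0.016) and 0.45 ± 0.11 (edgeR adjusted p = 0.0054). NCL was higher by 0.56 ± 0.06 (edgeR adjusted p = 3.48e-05), and UTP20 was lower by -0.76 ± 0.11 (edgeR adjusted p = 0.00019). EBNA1BP2, RRP9 and LTV1 were lower in acidosis than in the control but did not pass against SRPIN340, with differences of -0.01 ± 0.09, -0.15 ± 0.19 and -0.12 ± 0.09. Both comparisons use the same acidosis samples, so their values are given side by side and not correlated.

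Levels between genes were compared per kilobase of the canonical transcript, for which the 40 genes ranged from 507 to 12480 bases. In the control NPM1 was highest at 743 ± 35.5 CPM per kb (SD, n = 2), followed by NCL at 338 ± 30.5 and FBL at 307 ± 0.28, where NCL and FBL differed by little more than the spread of NCL. In acidosis NPM1 was at 540 ± 15.5 CPM per kb (n = 3), FBL at 521 ± 12.3 and NCL at 395 ± 10.9, so that NPM1 and FBL lay within 2 SDs of each other. The lowest in the control were UTP15 at 4.68 ± 0.67 and WDR12 at 7.39 ± 0.27 CPM per kb. These levels depend on the length of the canonical transcript, 5096 bases for UTP15 and 8068 for WDR12. The counts themselves are per gene, over all its transcripts. UTP15 was rank 40 of 40 in the control and rank 30 in acidosis, RRP12 went from rank 34 to 19 and BYSL from 28 to 12, whereas UBTF went from 20 to 34.

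Some of the genes also hold snoRNA genes between their start and end, and whether these lie in introns was not determined. In GENCODE release 44, 7 of the 40 (17.5%, against 1.55% of tested genes) contain snoRNA genes on their own strand, 25 in all: GNL3 has 6, NOP56 5, NOP58 4, NCL and WDR43 3 each, and DKC1 and TSR1 2 each. Of these hosts 5 were higher in acidosis, against 32.5% of all tested genes. TSR1 was lower, against 34.2% of all tested genes, and NOP58 did not pass. The median log2 fold change was 0.22 against 0.19 in the 33 genes without a snoRNA. Among the 5 higher hosts DKC1, NCL and WDR43 were lower with total count scaling, GNL3 passed in neither direction and NOP56 stayed higher. TSR1 and NOP58 were lower with that scaling too, under which 16.2% of all tested genes were higher and 55.0% lower. The snoRNAs themselves were not measured. Exons of 8 of the 40 genes overlap other protein-coding genes: NHP2, NOP16, GNL3, NOC2L and TSR1 on the opposite strand, and NOP2, RRS1 and LTV1 on the same strand. Salmon, which quantified the reads, divides those shared between transcripts by estimated abundance, and the strand setting is not given in the sources used here, so the levels of these 8, and of the 10 genes with pseudogenes of the same name, are less certain.

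In a wider list of 99 further ribosome biogenesis genes, 35 were higher and 37 lower in acidosis (median log2 fold change -0.04), with the 32.5% and 34.2% of all tested genes as the background. With total count scaling the counts were 13 and 69, against 16.2% and 55.0%. The 3 highest were all factors of RNA polymerase I. TAF1D, a subunit of the selectivity factor SL1, was at 56.3 and 54.4 CPM in the control, 55.3 and 57.2 CPM with SRPIN340, and 309, 309 and 293 CPM in acidosis, a log2 fold change against the control of 2.46 ± 0.07 (edgeR adjusted p = 8.77e-09). TAF1A, another SL1 subunit, was at 6.38 and 6.88 CPM in the control, 6.67 and 6.61 CPM with SRPIN340, and 34.2, 33.2 and 32.6 CPM in acidosis (2.33 ± 0.13, edgeR adjusted p = 3.36e-07). POLR1H, a small polymerase subunit, was at 10.2 and 15.7 CPM in the control, 15.8 and 16.1 CPM with SRPIN340, and 59.4, 46.7 and 56.3 CPM in acidosis (2.06 ± 0.19, edgeR adjusted p = 7.72e-06). In each of the 3 the acidosis samples lay above all others, beside the falls of UBTF and RRN3, which act at the same promoter. The further RNA polymerase I factors did not all rise, as 5 of the 9 were higher. TTF1 (-1.34 ± 0.09) and POLR1G (-0.86 ± 0.14) were lower, and TAF1B (-0.07 ± 0.10) and TCOF1 (0.08 ± 0.09) did not pass.

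The 3 lowest of the wider list were small subunit factors. RRP36 was at 97.8 and 99.7 CPM in the control, 79.5 and 77.7 CPM with SRPIN340, and 19.9, 25.2 and 22.7 CPM in acidosis (log2 fold change -2.13 ± 0.10, edgeR adjusted p = 1.36e-07). UTP18, a processome protein, was at 108 and 105 CPM in the control, 96.9 and 96.5 CPM with SRPIN340, and 31.8, 34.2 and 33.4 CPM in acidosis (-1.69 ± 0.08, edgeR adjusted p = 1.04e-07). UTP6, another processome protein, was at 79.8 and 81.9 CPM in the control, 69.7 and 70.5 CPM with SRPIN340, and 23.3, 25.6 and 27.6 CPM in acidosis (-1.67 ± 0.09, edgeR adjusted p = 3.22e-07). In all 3 genes the acidosis samples lay below the others.

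By role, 5 of 9 further RNA polymerase I factors were higher and 2 lower, and of 9 snoRNP assembly factors 2 were higher and 5 lower (median log2 fold change -0.52). Of 39 small subunit factors 12 were higher and 16 lower, and of 42 large subunit factors 16 were higher and 14 lower. Over all tested genes 32.5% were higher and 34.2% lower. These counts by role use TMM scaling. Total count scaling gave 13 higher and 69 lower among the 99 together, against 16.2% and 55.0% of all tested genes. With SRPIN340 none of the 99 passed in edgeR, and 20 had an unadjusted p under 0.05, against 17.6% of all tested genes.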

How the data were processed

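Poly(A) RNA of 7 HEK-293 samples was sequenced. Per the submitters' processing notes and methods, the authors trimmed reads (Trimmomatic 0.39, Trim Galore 0.6.6), quantified them with Salmon 1.5.1 at default parameters and deposited estimated counts per gene from tximport, with no normalization between samples. The strand setting is not given in the sources used here, nor is the tximport option, which sets how counts reflect transcript length. Identifiers were matched to symbols for 19977 of 19978 genes. Counts were rounded, filtered with filterByExpr, scaled by TMM and fitted over all 7 samples with the quasi-likelihood test of edgeR 4.0.16 in R 4.3.3. Standard errors were derived from the test statistic. Genes past an adjusted p of 0.05 were counted at any fold. DESeq2 1.42.0, other scalings, filters and sample sets were alternatives. Values in every sample are given for the 2 largest changes of each role group, the 3 highest and 3 lowest genes, genes past the test with SRPIN340, and the 3 highest and 3 lowest of the wider list. The genes, lists and tests were chosen with earlier results of these data known. Promoters were from RefSeq, positions from GENCODE release 44 (GRCh38), and figures were drawn with matplotlib 3.10.9.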

Additional observations from a re-analysis of the deposited data

How the results depend on the processing

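The scaling mattered most. With total count scaling, acidosis against control gave 10 higher and 23 lower nucleolar genes with a median of -0.36 and 13 higher and 69 lower genes of the wider list, NCL turned to -0.35, acidosis against SRPIN340 gave 14 and 19 with a median of -0.24, and SRPIN340 against control gave 0 lower. Requiring an absolute log2 fold change over 1 left 8 higher and 4 lower in acidosis, 0 lower with SRPIN340, and 12 and 1 in acidosis against SRPIN340. The 2 genes lower with SRPIN340 became 6 with DESeq2, 5 with only the compared groups in the fit and 1 with RLE size factors. A mean of at least 6 CPM gave medians of 0.16 in acidosis and 0.33 against SRPIN340.

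Leaving out each sample in turn gave 16 to 20 higher and 11 to 14 lower genes in acidosis with a median of 0.16 to 0.24, 0 to 1 lower with SRPIN340 with a median of -0.19 to -0.14, and a median of 0.35 to 0.43 in acidosis against SRPIN340. Without either SRPIN340 sample or without the first control sample 0 were lower, and without the second control sample 1. Of 216 values of the 18 genes described in every sample, 211 kept direction and side of the threshold in acidosis. NCL accounts for the 1 that was lost and the 1 that turned, and BOP1 for 3 that became lower past the threshold. Among the 12 settings other than total count scaling, WDR43 passed in 5, PES1 in 6, POLR1A in 9, DKC1 and EBNA1BP2 in 10, NCL and UTP4 in 11, and the other genes called in acidosis in all 12. Of 66 ratio values 2 moved beyond the spread, both of POLR1E to POLR1A (0.47 and 0.26 without either control sample).

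Whether samples of the same repeat number belong together could not be decided. The correlation of their deviations from the group mean was between -0.11 and 0.06 over 6 pairs. In a group of 2 samples the deviations mirror each other, so the 6 pairs are not separate observations. With a replicate block, 0 genes were lower with SRPIN340 and the median of acidosis against SRPIN340 was 0.42. With 2 samples in both the control and the SRPIN340 group, small changes of either are poorly resolved.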
